A study of Mus musculus with 32 samples.

Results

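The nuclear-encoded respiratory chain genes were taken as the protein-coding genes whose GENCODE M21 symbol begins with Nduf, Uqcr, Cox4 to Cox8 or Atp5, or is Sdha, Sdhb, Sdhc or Sdhd. Of the 55385 genes in the RNA-seq tables, 94 met this rule, which did not use any measured value. They were 46 genes of complex I, 4 of complex II, 8 of complex III, 18 of complex IV and 18 of complex V. Because the rule reads symbols, it also takes in genes that are not subunits. The complex I group holds 8 assembly factors (Ndufaf1 to Ndufaf8) and the pair Ndufa4 and Ndufa4l2, whose products are now counted with complex IV. The complex IV group holds Cox7a2l, a factor that joins complexes into supercomplexes, and the complex V group holds factor B (Atp5s) and a second gene identifier named Atp5o that had no read in any library.

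The study inhibited histone acetylation or deacetylation in mouse embryos fertilised in vitro and sequenced total RNA from 16 libraries in 8 groups of 2. Eggs and sperm came from wild-type B6D2F1/J mice of 6 to 8 weeks, and embryos were cultured in KSOM medium. For the first experiment embryos were kept in DMSO, the vehicle, or in 10 µM A-485, an inhibitor of the acetyltransferases CBP and p300, from 4 to 20 hours post insemination, and collected at 3 stages, as zygotes and at the early and the late 2-cell stage. The inhibitor was washed off at the end of that period, so the late 2-cell A-485 embryos were collected after its removal. For the second experiment embryos were kept in DMSO or in 50 nM trichostatin A (TSA), an inhibitor of histone deacetylases, from 8 to 28 hours, and collected as late 2-cell embryos. Each group is a population of whole embryos, the number per library is not given in the sources used here, and nothing says whether the 2 libraries of a group came from separate cultures, so the p-values measure only the spread between these libraries.

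The respiratory chain sits in the inner mitochondrial membrane. Complexes I and II take electrons from NADH and succinate, complex III passes them to cytochrome c, and complex IV hands them to oxygen. Complex V, the ATP synthase, makes ATP from the proton gradient that complexes I, III and IV build. Except for complex II, each complex joins subunits encoded in the nucleus to a few encoded in mitochondrial DNA. The egg supplies the zygote with its mitochondria and with a store of maternal mRNA, which is degraded while the embryo starts its own transcription, weakly in the zygote and strongly in the late 2-cell embryo.

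The libraries held between 13206163 and 32585987 expected counts, the estimated read numbers that the authors' quantifier assigns to genes, and the 2 late 2-cell A-485 libraries were the shallowest. Summed over 6 oocyte genes the level lay between 548 and 2231 FPKM (fragments per kilobase of transcript, scaled to sequencing depth) in the 16 libraries, whereas 10 cumulus cell genes summed to between 0.90 and 13.7 FPKM and were highest, at 9.44 and 13.7, in the late 2-cell A-485 libraries. Sperm genes summed to at most 18.9, erythroid genes to at most 9.19 and fibroblast genes to at most 2.64 FPKM. Levels are relative to the library, so in these bulk samples fewer cells or embryos contributing a transcript and less of it per cell cannot be told apart. The members took 0.172% to 0.184% of the counts in zygotes, 0.102% to 0.107% in early 2-cell embryos and 0.0851% to 0.132% in late 2-cell embryos.

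The members differed widely in level in DMSO-treated zygotes, in which 85 of 94 had a mean of 1 FPKM or more. Cox6c, a complex IV subunit, was the highest member at 148 ± 24 FPKM (SD, n = 2), and Atp5h, the d subunit of the ATP synthase stalk, followed in complex V at 138 ± 3.25 FPKM. Ndufab1, the mitochondrial acyl carrier protein that is also a complex I subunit, had 122 ± 12.5 FPKM. Sdha, the flavoprotein of succinate dehydrogenase, had 81.4 ± 2.55 FPKM, whereas Sdhb, its iron-sulfur partner, had 4.37 FPKM and was the lowest of complex II. In complex III the hinge protein gene Uqcrh was highest at 48.2 FPKM. Uqcrc1, a core protein of the same complex, was lowest there, at 0.91 and 1.10 FPKM in the 2 libraries. Genes whose products sit side by side in a complex thus had unequal mRNA levels.

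**Figure D1:**
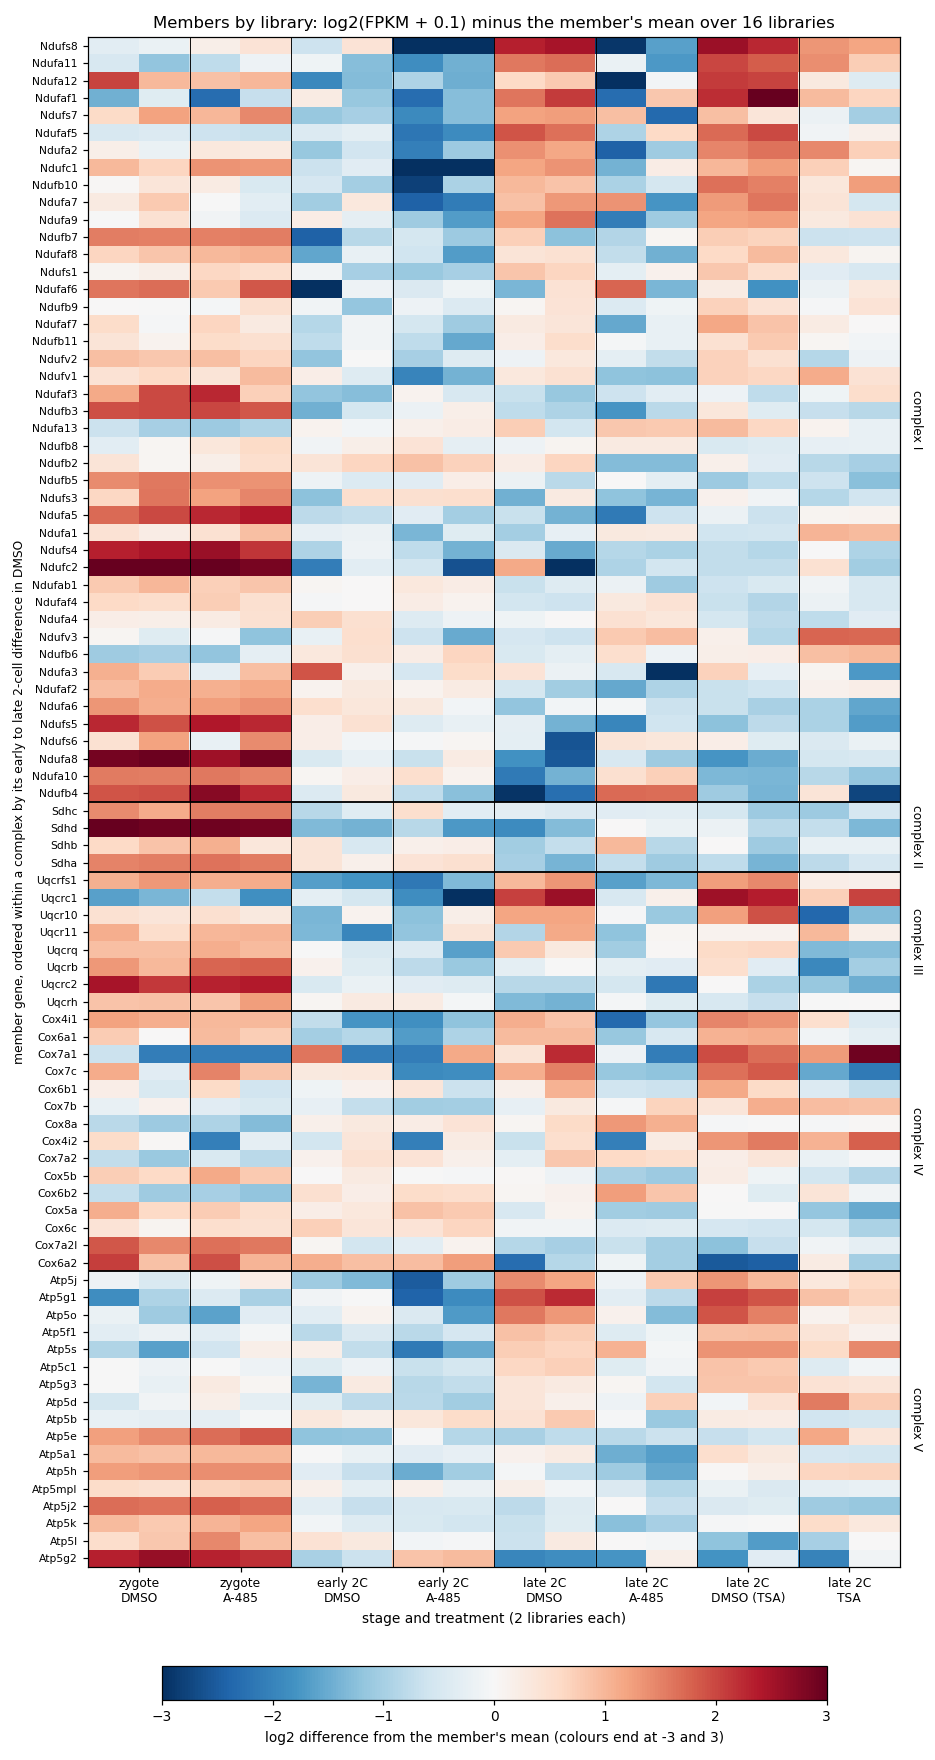
Level of most expressed members in each of the 16 libraries, as log2(FPKM + 0.1) minus the member's mean over the libraries (red above, blue below that mean), with genes in rows by complex and the 2 libraries of each group side by side. Most rows are red in zygotes, and the upper rows of complexes I, III, IV and V are red again in the late 2-cell DMSO libraries and blue in early 2-cell A-485 and most late 2-cell A-485 libraries.

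From zygote to early 2-cell embryos in DMSO, the members fell more than genes at large. Of 86 members with 1 FPKM or more in either stage, 34 (39.5%) fell by 2-fold or more at an adjusted p under 0.05 in edgeR's quasi-likelihood test with Benjamini-Hochberg adjustment, against 22.5% of all genes tested, and 5 rose, against 16.9%. Without the 2-fold limit 45 were lower and 9 higher, against 34.2% and 28.3% of all genes. The median log2 fold change was -0.75 for the members and -0.12 for all genes. Those that fell were 20 of 44 genes of complex I, 2 of 4 of complex II, 5 of 8 of complex III, 3 of 13 of complex IV and 4 of 17 of complex V, and the shares of the last pair were near that of all genes.

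Sdhd, a membrane anchor of complex II, was at 36.8 and 34.9 FPKM in zygotes and at 1.75 and 1.63 FPKM in early 2-cell embryos, a log2 fold change of -4.31 ± 0.21 (SE, adjusted p = 2.7e-09, edgeR). Sdha fell less, from 79.6 and 83.2 to 37.4 and 31.5 FPKM, with a log2 fold change of -0.99 ± 0.10 that stayed just under the 2-fold limit. The other anchor gene, Sdhc, was also called lower, while Sdhb, at 3.44 and 1.83 FPKM in early 2-cell embryos, was not.

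In complex III the core protein gene Uqcrc2 went from 41.9 and 33.0 FPKM to 5.39 and 6.51 FPKM, and Uqcrfs1, which encodes the Rieske iron-sulfur protein, from 15.6 and 18.4 to 2.31 and 2.07 FPKM. The log2 fold changes were -2.90 ± 0.17 (adjusted p = 1.2e-08, edgeR) and -2.86 ± 0.24 (adjusted p = 5.1e-07). For both genes all zygote libraries lay far above all early 2-cell libraries. The largest fall in complex I was that of Ndufc2, an accessory subunit, from 24.4 and 21 to 0.48 and 1.87 FPKM (log2 fold change -3.77 ± 0.51, adjusted p = 4.0e-05). Ndufs8, a core subunit, was at 2.95 and 3.18 FPKM before and 2.38 and 4.90 FPKM after, and was not called.

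In complex IV the largest fall was that of Cox4i1, the common form of subunit 4, from 37.9 and 35.1 FPKM to 9.89 and 4.72 FPKM (log2 fold change -2.25 ± 0.30, adjusted p = 3.3e-05, edgeR). The largest in complex V was that of Atp5g2, 1 of 3 genes that encode the same mature c-ring subunit, from 13.9 and 16.9 to 1.31 and 1.66 FPKM (log2 fold change -3.30 ± 0.37, adjusted p = 6.2e-06). Summed over the 16 libraries, the posterior SD of the Atp5g2 estimate was 9.38% of its summed count, so part of its reads could not be placed with certainty.

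The 5 members that rose were Ndufb6, Cox6b2, Cox7a2, Cox8a and Atp5g1. Ndufb6, an accessory subunit of complex I, went from 5.06 and 5.33 to 13.4 and 14.8 FPKM, with a log2 fold change of 1.56 ± 0.32 (adjusted p = 0.0011, edgeR). Cox6b2, the testis form of subunit 6B, went from 23.5 and 18.4 to 54.0 and 44.0 FPKM, and Cox8a from 66.4 and 54.7 to 130 and 142 FPKM. Atp5g1, another c-ring gene, rose from 4.02 and 7.79 to 13.8 and 14.8 FPKM (log2 fold change 1.24 ± 0.29, adjusted p = 0.0033). All early 2-cell libraries lay above all zygote libraries for these genes, and Cox7a2, at 10.9 and 8.43 FPKM in zygotes and 20.0 and 25.2 FPKM in early 2-cell embryos, stayed under 2-fold without early 2-cell DMSO replicate 2. Scaled instead to the mitochondrially encoded genes, which shifts the median of all genes from -0.12 to -1.45, the change of Cox7a2, Cox8a and Atp5g1 turned to -0.10, -0.07 and -0.10. No member was then called higher and 68 were called lower, against 1270 and 8196 of the 13353 genes tested. The difference between the members' median and that of all genes was -0.63 in the main scaling and -0.61 in that one.

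The step from early to late 2-cell embryos in DMSO ran the other way for a subset. Of 86 members, 21 (24.4%) rose by 2-fold or more, against 23.6% of all genes tested, and 5 fell, against 13.2%, so the share that rose was near the background. The median log2 fold change was 0.24 for the members and 0.03 for all genes. The 21 were 12 genes of complex I, 3 of complex III, 2 of complex IV and 4 of complex V, and included 4 of the 7 core subunits of complex I, Ndufs1 and Ndufs8 among them. Read from the late 2-cell DMSO libraries of the TSA experiment, 34 members (39.5%) rose, against 28.0% of all genes, and the median was 0.77, against 0.02 for all genes.

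Ndufs8, a core iron-sulfur subunit of complex I, stood at 2.38 and 4.90 FPKM in early 2-cell libraries and at 19.0 and 21 FPKM in late 2-cell libraries, a log2 fold change of 2.39 ± 0.35 (adjusted p = 1.7e-04, edgeR). Uqcrfs1 returned to 14.6 and 18.9 FPKM, close to its zygote values, with a log2 fold change of 2.92 ± 0.29 (adjusted p = 6.1e-06). Uqcrc1 rose from 2.43 and 2.06 to 12.8 and 18.2 FPKM, above its zygote values of 0.91 and 1.10 (log2 fold change 2.80 ± 0.46, adjusted p = 4.2e-04). Cox4i1 returned to 34.9 and 30.0 FPKM (log2 fold change 2.15 ± 0.35, adjusted p = 4.1e-04). Atp5j, coupling factor 6 of the stalk, rose from 7.10 and 5.94 to 40.0 and 34.1 FPKM (log2 fold change 2.34 ± 0.29, adjusted p = 3.7e-05). None of these 5 genes had overlapping groups. The largest rise called in complex I was that of Ndufaf1, an assembly factor at 0.48 and 0.12 FPKM before and 1.39 and 1.98 FPKM after, but its call was lost without early 2-cell DMSO replicate 2 and without either late library (adjusted p between 0.055 and 0.16).

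The members that fell between these stages were Ndufa8, Ndufa10 and Ndufb4 of complex I, Sdha and Uqcrh. Sdha went on falling, to 14.3 and 10.8 FPKM (log2 fold change -1.27 ± 0.17, adjusted p = 6.5e-05, edgeR), so that the summed level of complex II dropped from 128 FPKM in zygotes through 40.6 to 17.5 FPKM. Uqcrh went from 27.4 and 31.8 to 10.5 and 9.74 FPKM (log2 fold change -1.54 ± 0.32, adjusted p = 0.0022). Its fall against the DMSO libraries of the TSA experiment was -0.56 and was not called (adjusted p = 0.089). Against those libraries the falls of Ndufb4 (-1.16) and Ndufa8 (-1.22) were not called either, whereas Ndufa10 and Sdha were called lower. Ndufa10, an accessory subunit of complex I, went from 13.4 and 14.8 to 2.91 and 4.80 FPKM (log2 fold change -2.02 ± 0.26, adjusted p = 5.4e-05). Ndufb4 was at 1.41 and 2.35 FPKM before and 0.16 and 0.32 FPKM after, and its call was lost without either early library and without late 2-cell DMSO replicate 1 (adjusted p between 0.066 and 0.28). Stage and sequencing set cannot be told apart in either stage step, because the sources do not say which libraries were prepared together.

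**Figure D2:**
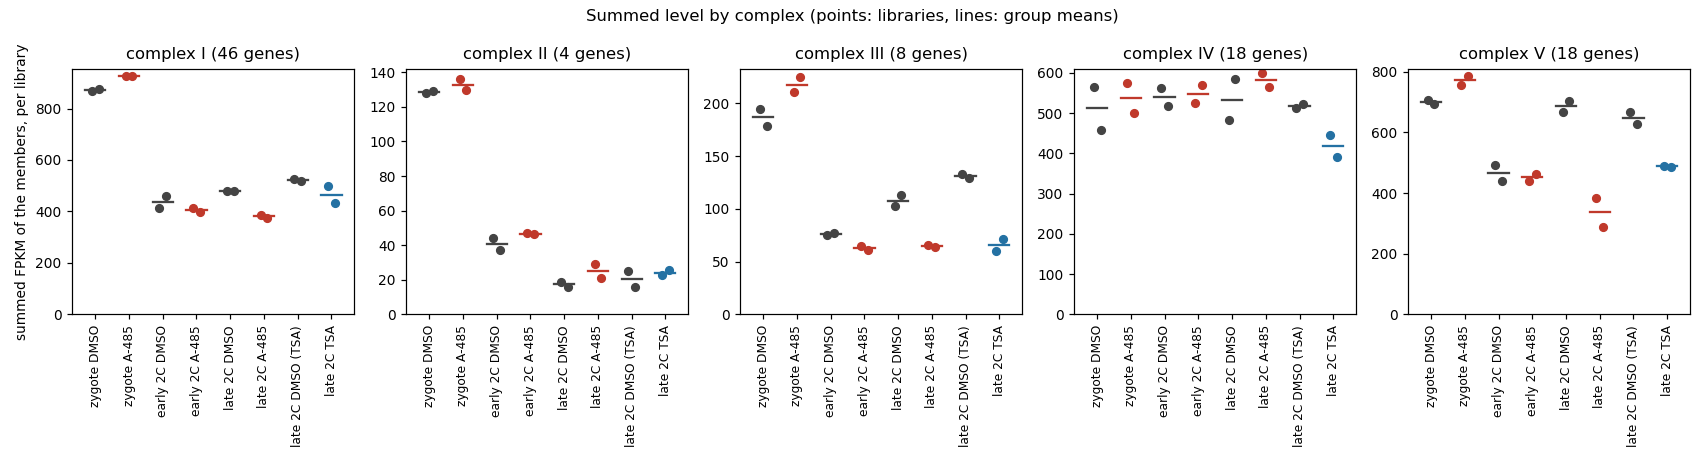
Summed FPKM of the members of each complex, with 1 point per library and a line at each group mean (gray DMSO, red A-485, blue TSA). Complex II falls stepwise from 128 to 17.5 FPKM over the DMSO stages, the mean of complex IV stays between 513 and 541 FPKM in the DMSO groups, and complex V is lower in late 2-cell A-485 libraries (337 FPKM) than in their DMSO libraries (686 FPKM).

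The promoters of 6 members are shown because these genes carry the contrasts that follow. Uqcrc1, Uqcrfs1, Ndufs8 and Ndufa9 rose toward the late 2-cell stage and were lower after either inhibitor, and Ndufa10 and Ndufb4 fell toward that stage and were higher after A-485. Both changes of Ndufb4 rest on the same late 2-cell DMSO libraries, with 3 and 5 counts. Its fall was not called with the DMSO libraries of the TSA experiment. The sequences are RefSeq windows of the GRCm38.p6 assembly, 300 bases each, read 5′ to 3′ on the strand of the gene and ending just past the annotated transcript start, so that their last bases lie in the first exon. Capitals mark a match to 1 of 3 short motifs on either strand: GCGCATGCG for the factor NRF1, CCGGAAG for ETS-family factors such as GABPA, and AAGATGGCG for YY1. Uqcrc1 lies at chr9:108936398-108936697 on the plus strand, and the others on the minus strand at chr13:30545267-30545566 (Uqcrfs1), chr19:3912725-3913024 (Ndufs8), chr6:126849095-126849394 (Ndufa9), chr1:92473709-92474008 (Ndufa10) and chr16:37654319-37654618 (Ndufb4).
Uqcrc1: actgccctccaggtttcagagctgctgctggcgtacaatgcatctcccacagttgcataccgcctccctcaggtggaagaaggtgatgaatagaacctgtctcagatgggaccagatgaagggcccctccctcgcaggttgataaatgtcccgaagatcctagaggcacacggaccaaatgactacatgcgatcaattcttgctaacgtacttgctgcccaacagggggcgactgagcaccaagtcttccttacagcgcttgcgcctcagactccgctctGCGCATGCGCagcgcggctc
Uqcrfs1: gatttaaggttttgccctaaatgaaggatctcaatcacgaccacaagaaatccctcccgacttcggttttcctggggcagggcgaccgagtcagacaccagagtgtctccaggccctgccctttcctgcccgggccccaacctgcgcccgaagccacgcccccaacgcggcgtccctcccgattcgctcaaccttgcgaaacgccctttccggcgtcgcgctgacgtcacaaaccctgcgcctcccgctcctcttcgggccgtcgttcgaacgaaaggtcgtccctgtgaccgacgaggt
Ndufs8: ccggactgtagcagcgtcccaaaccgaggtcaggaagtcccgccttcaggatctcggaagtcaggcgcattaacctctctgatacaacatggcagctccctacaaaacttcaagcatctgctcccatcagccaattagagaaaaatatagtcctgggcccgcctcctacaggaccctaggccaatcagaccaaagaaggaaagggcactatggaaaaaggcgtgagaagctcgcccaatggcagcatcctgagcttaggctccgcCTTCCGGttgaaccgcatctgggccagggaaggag
Ndufa9: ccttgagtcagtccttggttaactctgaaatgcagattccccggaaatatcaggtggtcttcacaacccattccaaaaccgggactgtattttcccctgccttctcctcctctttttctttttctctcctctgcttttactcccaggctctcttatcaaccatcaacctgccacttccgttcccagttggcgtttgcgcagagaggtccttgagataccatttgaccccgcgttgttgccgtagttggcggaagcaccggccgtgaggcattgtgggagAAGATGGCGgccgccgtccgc
Ndufa10: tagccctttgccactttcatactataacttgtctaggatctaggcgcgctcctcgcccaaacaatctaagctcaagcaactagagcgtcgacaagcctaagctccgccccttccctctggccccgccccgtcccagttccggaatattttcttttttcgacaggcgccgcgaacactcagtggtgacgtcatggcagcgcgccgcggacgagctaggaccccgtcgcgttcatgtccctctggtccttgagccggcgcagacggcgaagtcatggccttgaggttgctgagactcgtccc
Ndufb4: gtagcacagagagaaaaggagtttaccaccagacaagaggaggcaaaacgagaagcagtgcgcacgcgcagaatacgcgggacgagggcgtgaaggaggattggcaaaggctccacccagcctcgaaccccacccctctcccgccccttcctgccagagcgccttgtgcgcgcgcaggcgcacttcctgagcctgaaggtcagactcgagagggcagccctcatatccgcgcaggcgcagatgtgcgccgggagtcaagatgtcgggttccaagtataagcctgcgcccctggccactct

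In Uqcrc1 the NRF1 letters occur on both strands in overlapping copies that begin at bases 31 and 32 after the start, in Ndufs8 the ETS letters lie on the opposite strand from base 16, and in Ndufa9 the YY1 letters begin at base 30. The windows of Uqcrfs1, Ndufa10 and Ndufb4 hold none of the 3 motifs. RefSeq windows were found for 74 member genes, 79 windows in all. The NRF1 letters were in 10 of them (12.7%, against 1.75% of all 32851 windows and 3.34% of the 13980 windows of expressed protein-coding genes), the ETS letters in 18 (22.8%, against 8.86% and 15.9%) and the YY1 letters in 8 (10.1%, against 1.40% and 2.7%). At least 1 motif was in 30 member windows (38.0%, against 11.4% and 20.6%). A match is a run of letters and not a measured binding site.

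A-485 left the members without a called change in zygotes, which were collected during the treatment. Of 86 members with 1 FPKM or more, none passed the test in edgeR in either direction, against 0.00839% of all genes called higher and 0.101% called lower by 2-fold or more. At an unadjusted p under 0.05, 5 members were higher and 0 lower in edgeR, against 2.92% and 2.14% of all genes. DESeq2 called none after adjustment. The 2 A-485 libraries lay above both DMSO libraries for 29 members, against 17.3% of all genes, and below both for 8, against 15.4%. The median log2 fold change was 0.07 for the members and 0.01 for all genes. Atp5b, the catalytic beta subunit of the ATP synthase, was at 130 and 124 FPKM in DMSO and 126 and 145 FPKM in A-485, Sdha at 79.6 and 83.2 against 87.9 and 84.4, and Cox4i1 at 37.9 and 35.1 against 32.5 and 32.5 FPKM.

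In early 2-cell embryos, at the end of the treatment, A-485 lowered 5 of 83 members (6.02%) by 2-fold or more, against 12.7% of all genes, and raised none, against 0.647%. Without the 2-fold limit 6 were lower and 1 higher, against 15.6% and 2.26% of all genes. The members' median log2 fold change was -0.21 and that of all genes -0.01. The 5 were the complex I genes Ndufs8, Ndufaf5 and Ndufv3, the complex IV gene Cox7b and the c-ring gene Atp5g1. Ndufs8 fell from 2.38 and 4.90 FPKM in DMSO to 0.29 and 0.11 FPKM in A-485, a log2 fold change of -4.34 ± 0.77 (adjusted p = 0.0022, edgeR), before the stage at which it rises in DMSO. Atp5g1 fell from 13.8 and 14.8 to 2.74 and 3.95 FPKM (log2 fold change from counts -1.25 ± 0.30, adjusted p = 0.015). Cox7b fell from 34.2 and 24.6 to 19.7 and 20.2 FPKM (log2 fold change from counts -1.17 ± 0.26, adjusted p = 0.011). With limma on FPKM its log2 fold change was -0.54 and was not called (adjusted p = 0.22), and its effective length was 295 and 619 bases in DMSO against 290 and 266 bases in A-485. For each of the 3 genes the A-485 libraries lay below both DMSO libraries. Cox5a, a complex IV subunit, was the 1 member called higher, by less than 2-fold, at 49.1 and 46.0 against 30.8 and 33.3 FPKM. The count of 5 fell to 3 without early 2-cell DMSO replicate 2 and to 3 with limma on FPKM, under which Ndufs8 had an adjusted p of 0.068. The calls of Cox7b and Ndufv3 were lost without DMSO replicate 2, that of Ndufv3 also without A-485 replicate 2, and that of Atp5g1 without A-485 replicate 1. The summed level of the genes typical of 2-cell embryos was 13.8 and 16 FPKM in A-485 and 395 and 444 FPKM in DMSO, and its part in the members' values was not tested.

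In late 2-cell embryos that had been through the A-485 period, 28 of 85 members (32.9%) were lower by 2-fold or more than in DMSO, against 23.8% of all genes tested, and 3 were higher, against 15.0%. Without the 2-fold limit 30 were lower and 5 higher, against 28.7% and 19.5% of all genes. The median log2 fold change was -0.77 for the members and 0.02 for all genes. The lower members were 13 genes of complex I, 3 of complex III, 6 of complex IV and 6 of complex V, and no gene of complex II passed the test. All 3 higher members belonged to complex I. In these libraries the summed level of the oocyte genes was 1362 and 1383 FPKM, against 722 and 775 FPKM in DMSO, that of the cumulus genes 9.44 and 13.7 against 0.90 and 1.90, with Fshr and Amh at 0 in both, and that of genes typical of 2-cell embryos 49.8 and 62.9 against 239 and 259 FPKM. The part of these differences in the members' values was not tested.

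Within complex I the core subunits had a median log2 fold change of -1.71 over 7 genes and the assembly factors one of -1.82 over 7 genes, while that of the accessory subunits was -0.14 over 28 genes. Called lower were 4 of 7 core subunits (among them Ndufs1, Ndufs8 and Ndufv1), 4 assembly factors and 5 accessory subunits. Ndufs8 was at 19.0 and 21 FPKM in DMSO and 0.40 and 1.13 FPKM in A-485 (log2 fold change -4.79 ± 0.51, adjusted p = 1.2e-05, edgeR). Ndufa9, an accessory subunit near the junction of the complex's arms, was at 6.08 and 8.28 against 0.54 and 1.19 FPKM (log2 fold change -3.27 ± 0.55, adjusted p = 5.3e-04). Ndufs1, the largest core subunit, was at 8.73 and 7.65 against 3.94 and 5.28 FPKM, a smaller difference than its log2 fold change from counts of -1.71. Its effective length was 1892 and 1864 bases in DMSO and 1095 and 1219 bases in A-485. For each of the 3 genes the A-485 libraries were the lower pair in FPKM. Ndufaf1 had 80 counts over the 2 DMSO libraries and 1 over the A-485 libraries, a ratio per total count of 53.2 with an exact 95% interval of 9.28 to 2128 that covers counting error only, although its FPKM of 1.39 and 1.98 against 0 and 0.75 differed less. The effective length assigned to it was 1152 and 1129 bases in DMSO and 814 and 89.3 bases in A-485.

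The 3 higher members were Ndufb4, Ndufa10 and Ndufv3, all accessory subunits. Ndufb4 was at 0.16 and 0.32 FPKM in DMSO and 6.42 and 6.30 FPKM in A-485 (log2 fold change 4.17 ± 0.80, adjusted p = 0.0014, edgeR), against 7.40 and 7.55 FPKM in DMSO zygotes. Ndufa10 was at 2.91 and 4.80 against 18.1 and 21.3 FPKM (log2 fold change 1.76 ± 0.30, adjusted p = 6.4e-04). Ndufv3 was at 5.00 and 4.62 against 12.5 and 13.8 FPKM (log2 fold change 1.55 ± 0.34, adjusted p = 0.0036), a call that was lost when libraries were scaled to the mitochondrially encoded genes (0.58, adjusted p = 0.23). A processed pseudogene named Ndufb4c was at 3.24 and 8.23 FPKM in DMSO and 6.91 and 4.88 FPKM in A-485, and how reads were divided between it and Ndufb4 is uncertain.

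In complex III, Uqcrfs1 was at 14.6 and 18.9 FPKM in DMSO and 2.32 and 2.85 FPKM in A-485 (log2 fold change -2.90 ± 0.33, adjusted p = 2.5e-05, edgeR). Uqcrc1 was at 12.8 and 18.2 against 2.11 and 3.36 FPKM (log2 fold change -2.87 ± 0.45, adjusted p = 2.9e-04). For both, the A-485 libraries lay near the early 2-cell DMSO values. The small subunit gene Uqcr10 was the other called member, at 21.2 and 21.1 against 8.99 and 4.26 FPKM. Uqcrc2, already low at 4.15 and 4.11 FPKM in DMSO, was at 5.10 and 1.60 FPKM in A-485.

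Of the 10 common subunits of complex IV, 6 were lower: Cox4i1, Cox5a, Cox5b, Cox6a1, Cox6b1 and Cox7c. Cox4i1 was at 34.9 and 30.0 FPKM in DMSO and 3.17 and 7.28 FPKM in A-485 (log2 fold change -3.36 ± 0.37, adjusted p = 1.6e-05, edgeR). Cox8a instead was at 121 and 174 FPKM in DMSO and 287 and 244 FPKM in A-485, the highest level of any member in that group, with a log2 fold change of 0.60 ± 0.18 that passed the test under 2-fold (adjusted p = 0.021). The summed level of complex IV was 534 FPKM in DMSO and 582 FPKM in A-485, while 6 of its 13 genes at 1 FPKM or more were called lower.

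In complex V the alpha subunit gene Atp5a1 was at 44.4 and 48.5 FPKM in DMSO and 14.6 and 12.8 FPKM in A-485 (log2 fold change -2.12 ± 0.16, adjusted p = 6.0e-07, edgeR). Atp5b was at 205 and 260 against 147 and 69.5 FPKM, with the largest gap between replicates in the A-485 pair (log2 fold change from counts -1.57 ± 0.14, adjusted p = 2.8e-06), and limma on FPKM did not call it (adjusted p = 0.11). The largest fall was that of the expressed Atp5o identifier, whose product, OSCP, links the stalk to the catalytic head, at 24.1 and 19.9 against 8.73 and 3.20 FPKM (log2 fold change -2.38 ± 0.44, adjusted p = 0.0012). Atp5g1 was at 56.1 and 70.5 against 11.8 and 8.55 FPKM, a larger difference than its log2 fold change from counts of -1.02 ± 0.23, and its mean effective length was 473 bases in DMSO and 1676 in A-485.

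With limma on log2(FPKM + 0.1), 17 members (20.0%) were lower, against 17.3% of all genes. Scaled to the mitochondrially encoded genes, which moves the median of all genes from 0.02 to -0.96, 47 members were lower. In that scaling 6874 of 16062 genes were lower as well. Under 3 scalings and DESeq2 the members' median lay between -0.77 and -0.79 relative to that of all genes. With limma it was -0.52, against 0.21 for all genes. Without late 2-cell DMSO replicate 2 the calls of Ndufv1, Cox5a, Cox6b1, Cox7c and Atp5g1 were lost, without DMSO replicate 1 that of Uqcr10, and without A-485 replicate 2 those of Cox6b1 and Atp5g1.

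**Figure D3:**
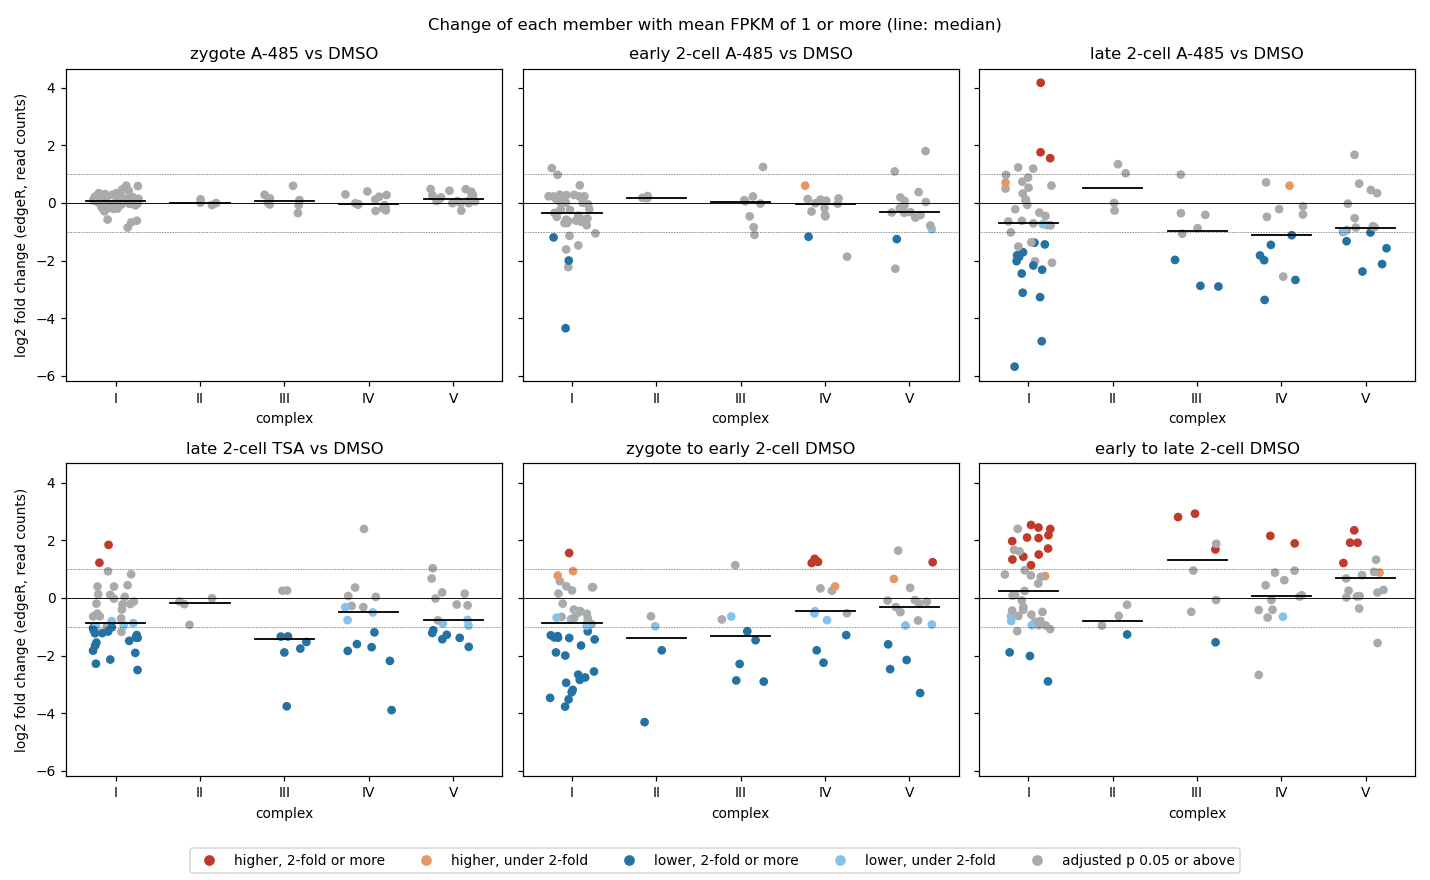
Log2 fold change of each member with a mean of 1 FPKM or more, from edgeR on read counts, in 6 comparisons and by complex (points: genes, colored by call, black lines: medians, dotted lines: 2-fold). All points lie within 2-fold in zygotes with A-485, and 28 points are dark blue (called lower by 2-fold or more) in late 2-cell embryos after A-485 and 35 after TSA.

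After TSA, 35 of 87 members in late 2-cell embryos (40.2%) were lower by 2-fold or more than in the DMSO libraries of the same experiment, against 20.2% of all genes tested, and 2 were higher, also against 20.2%. Without the 2-fold limit 45 were lower and 2 higher, against 30.4% and 25.0% of all genes. The median log2 fold change was -0.80 for the members and -0.03 for all genes. The lower members were 17 genes of complex I, 6 of the 8 genes of complex III, 6 of complex IV and 6 of complex V. As with A-485, no gene of complex II passed the test. The summed level of 4 erythroid genes was 9.19 and 6.95 FPKM in the TSA libraries and at most 0.21 FPKM in their DMSO libraries, with Hbb-bs at 0 in all 4, and that of the genes typical of 2-cell embryos was 405 and 423 against 151 and 194 FPKM. The part of these differences in the members' values was not tested.

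The largest falls were in small subunits of complexes III and IV. Cox7c was at 15.6 and 17.8 FPKM in DMSO and 1.62 and 1.05 FPKM in TSA (log2 fold change -3.89 ± 0.40, adjusted p = 1.8e-05, edgeR). Uqcr10 was at 21.9 and 35.2 against 1.74 and 3.72 FPKM (log2 fold change -3.76 ± 0.44, adjusted p = 4.5e-05). In both genes every TSA library lay far below every DMSO library. Uqcrq, a further small subunit of complex III, was at 19.9 and 20.7 FPKM in DMSO and 5.26 and 5.46 FPKM in TSA. Another, Uqcrb, was at 25.5 and 14.2 FPKM in DMSO and 4.66 and 8.80 FPKM in TSA.

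The core genes fell less. Uqcrfs1 was at 17.8 and 20.3 FPKM in DMSO and 8.60 and 8.26 FPKM in TSA (log2 fold change -1.53 ± 0.18, adjusted p = 4.2e-05, edgeR). Ndufs8 was at 22.5 and 18.0 against 9.31 and 8.52 FPKM (log2 fold change -1.39 ± 0.23, adjusted p = 5.5e-04). Cox4i1 was at 45.4 and 41.8 against 23.4 and 12.3 FPKM (log2 fold change -1.84 ± 0.22, adjusted p = 4.9e-05). Atp5b was at 179 and 176 against 101 and 105 FPKM (log2 fold change -1.22 ± 0.09, adjusted p = 1.1e-06), and Atp5a1 at 57.6 and 49.6 against 28.8 and 27.6 FPKM. Of the 7 core subunits of complex I, 5 were called lower and all 7 had a log2 fold change below 0, the smallest being -0.23 for Ndufv1.

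The 2 higher members were Ndufv3 and Ndufa1. Ndufv3 was at 7.92 and 3.93 FPKM in DMSO and 24.1 and 23.9 FPKM in TSA (log2 fold change 1.84 ± 0.20, adjusted p = 2.6e-05, edgeR). Ndufa1, a small membrane subunit of complex I, was at 5.6 and 5.79 against 17.3 and 16.6 FPKM (log2 fold change 1.22 ± 0.36, adjusted p = 0.019), a call that was lost without TSA replicate 1 and without DMSO replicate 1. Scaled to total counts, which moves the median of all genes from -0.03 to 0.32, 22 members were lower and 4 higher, against 2384 and 4108 of 16048 genes. Limma on FPKM gave 18 lower (20.7%, against 13.3% of all genes) and 4 higher (4.60%, against 22.6%). Under 3 scalings and DESeq2 the members' median remained -0.77 relative to that of all genes, and with limma on FPKM it was -0.43, against 0.33 for all genes.

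The late 2-cell DMSO libraries of the experiments gave the size of a difference with no inhibitor. None of 84 members was called between them in edgeR or DESeq2, against 1.82% of all genes called higher and 0.208% called lower in the TSA experiment. At an unadjusted p under 0.05, 13 members were higher and 1 lower in edgeR, against 9.87% and 8.06% of all genes. The members' median log2 fold change was nevertheless 0.31, against 0.00 for all genes, with 62 members above 0 and 22 below. A comparison across the experiments carries that offset.

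Some members differed in their response to A-485 between the 2-cell stages. In the interaction test, 9 of 91 members tested had a more negative effect in late than in early 2-cell embryos and 4 a more positive one, against 9.90% and 10.1% of all genes tested, so the first share was at the background. The first were led by Uqcrfs1, with a difference of log2 fold changes of -2.87 ± 0.55 (adjusted p = 3.7e-04, edgeR), Cox4i1 at -2.86 ± 0.59 (adjusted p = 8.0e-04) and Atp5a1 at -1.86 ± 0.19 (adjusted p = 6.7e-08). At the early stage Uqcrfs1 was at 2.31 and 2.07 FPKM in DMSO and 1.61 and 2.90 FPKM in A-485, and Cox4i1 at 9.89 and 4.72 against 4.52 and 7.05 FPKM, so that the groups overlapped in both genes. Ndufb4 led the other direction with a difference of 5.31 ± 1.16 (adjusted p = 0.0013). Scaled to the mitochondrially encoded genes, 28 members (30.8%) were more negative and 2 (2.20%) more positive, against 25.0% and 4.45% of all genes, whose median difference moves from 0.44 to -0.59 in that scaling. These background shares had no FPKM limit. A mean of 1 FPKM or more in a group compared was reached by 16731 of the 25141 genes and by 87 of the 91 members. In the main scaling the median difference of those 16731 genes was 0.22.

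The effects of the inhibitors differed for 13 of 91 members tested at the late 2-cell stage. For 10 (10.99%) the TSA effect was more positive than the A-485 effect and for 3 (3.30%) more negative, against 12.7% and 4.59% of all genes tested, so both shares were near or under the background. That background held 26554 genes and had no FPKM limit. Ndufs8 differed most, with a log2 difference of 3.52 ± 0.52 (adjusted p = 8.5e-05, edgeR), from -1.39 with TSA and -4.79 with A-485. Uqcrfs1 (1.47 ± 0.35, adjusted p = 0.0067), Cox4i1 (1.63 ± 0.40, adjusted p = 0.0077) and Atp5a1 (0.95 ± 0.18, adjusted p = 7.9e-04) were lower after both inhibitors and more so after A-485. Ndufa10 went the other way, at -1.54 ± 0.39 (adjusted p = 0.010), since it was higher after A-485 and at 5.00 and 4.90 FPKM in DMSO against 7.24 and 5.74 FPKM in TSA. Dose, period, wash-off and experiment differ between the treatments and cannot be told apart from the inhibitor. The 10 became 4 without either DMSO library of the TSA experiment and 6 without either TSA library, and the 3 became 0 and 1 without DMSO replicate 1 or 2 of the TSA experiment and 5 without DMSO replicate 1 of the A-485 experiment.

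**Figure D4:**
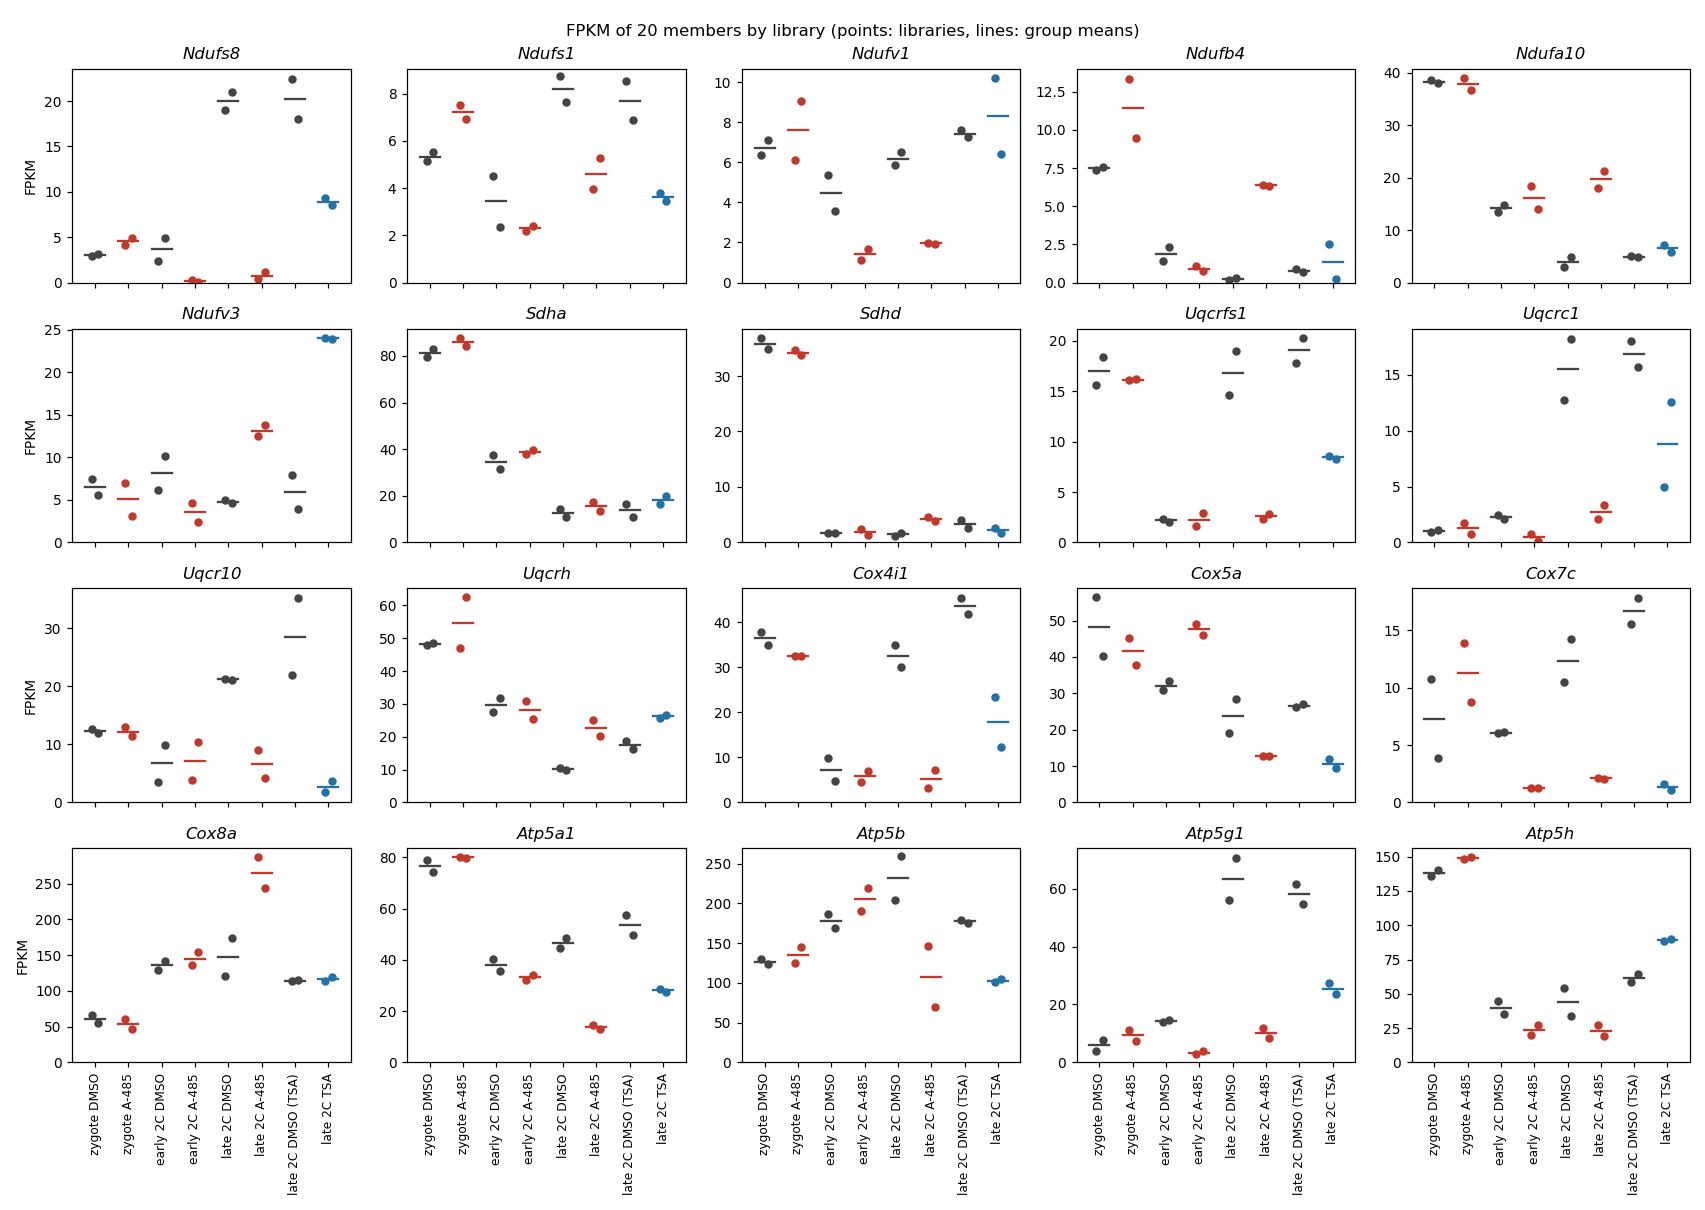
FPKM of 20 members named in the text in each of the 16 libraries, on linear axes that start at 0, with 1 point per library and a line at each group mean. Ndufs8, Uqcrfs1 and Cox4i1 are low in the late 2-cell A-485 libraries and intermediate in the TSA libraries, while Ndufb4 and Ndufa10 are higher in the late 2-cell A-485 libraries than in their DMSO libraries.

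The genes that rose toward the late 2-cell stage were compared with those that were lower after the inhibitors. To keep the libraries apart, the rise was read from the DMSO libraries of the other experiment. Of the 34 members that rose by that reading, 22 were lower after A-485 (64.7% of the rising and 78.6% of the lower members), and over all genes the shared part was 65.7% of those that rose and 70.0% of those that were lower, so the share of the rising members was near that of all rising genes. Of the 21 that rose in the DMSO libraries of the A-485 experiment, 19 were lower after TSA (90.5% of the rising and 54.3% of the lower members), against 67.5% and 67.3% over all genes. Over 89 members, Pearson's r between rise and inhibitor effect was -0.68 for A-485 and -0.58 for TSA, and Spearman's rho -0.71 and -0.61, against r of -0.54 and -0.46 and rho of -0.58 and -0.50 over 16524 genes, which describe genes that share libraries within each axis and are not replicates. Of the 28 members lower after A-485, 25 were among the 35 lower after TSA (89.3% and 71.4%), against 62.8% and 73.9% over all genes.

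**Figure D5:**
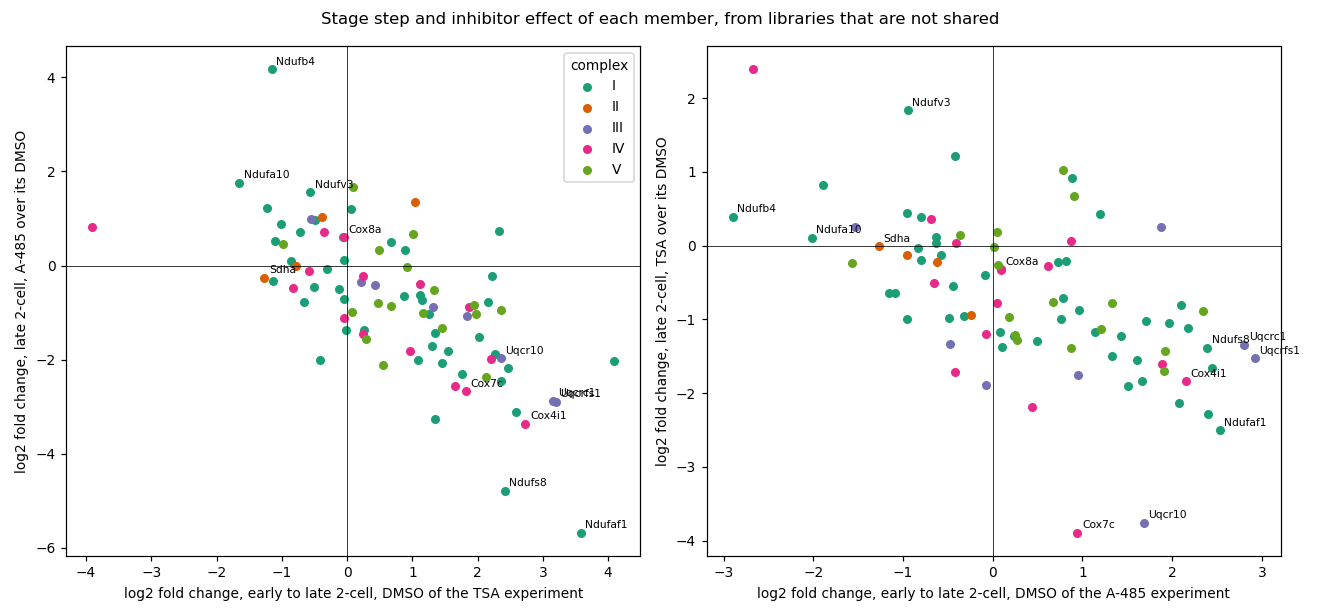
Log2 fold change of each member from early to late 2-cell embryos in DMSO (x axis) against its log2 fold change with A-485 (left) or TSA (right) in late 2-cell embryos (y axis), colored by complex, with no library on both axes. Members with larger rises lie lower, with Pearson's r of -0.68 (left) and -0.58 (right) over 89 genes, against -0.54 and -0.46 over all genes.

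Several subunits have a common and a tissue form. Cox6b2, named for testis, exceeded the common Cox6b1 in every group mean, at 23.5 and 18.4 against 11.9 and 7.48 FPKM in DMSO zygotes and at 91.2 and 68.6 against 6.82 and 6.62 FPKM in late 2-cell A-485 embryos. Cox6a1 was above the muscle form Cox6a2, which was at 5.66 and 2.40 FPKM in DMSO zygotes and at most 0.65 FPKM in late 2-cell DMSO libraries. Cox4i2 stayed at or under 1.32 FPKM in every library, against 3.17 FPKM or more for Cox4i1, and Cox8b had reads in 1 library only. Cox7a2, the common form of subunit 7A, was at 20.0 and 25.2 FPKM in early 2-cell DMSO embryos, and Cox7a2l fell from 50.5 and 37.9 FPKM in DMSO zygotes to 14.4 and 9.44 FPKM there. Cox7a1, the muscle and heart form, reached 3.09 FPKM in TSA replicate 2 and was at or under 1.87 FPKM elsewhere, and Cox7b2 and Cox8c were under 1 FPKM in every library. Ndufa4l2 did not exceed 0.65 FPKM, whereas Ndufa4 lay between 8.93 and 25.6 FPKM. The c-ring genes changed places over the stages. Atp5g2 was the highest of the 3 in DMSO zygotes at 13.9 and 16.9 FPKM and the lowest in late 2-cell DMSO embryos at 0.61 and 0.66 FPKM, where Atp5g1 was at 56.1 and 70.5 FPKM and Atp5g3 at 7.23 and 6.74 FPKM.

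The 13 mitochondrially encoded subunits moved differently from their nuclear partners. From zygote to early 2-cell embryos 11 of 13 were higher by 2-fold or more (median log2 fold change 1.38), against 16.9% of all genes. In zygotes with A-485, 1 was higher and 2 lower, with log2 fold changes of the 13 genes between -4.10 and 2.05. In early 2-cell embryos with A-485 1 was higher. In late 2-cell embryos after A-485, 6 were higher and 1 lower, against 15.0% and 23.8% of all genes, with a median of 0.995. After TSA 1 was higher, against 20.2%. Scaling to these same genes would set such changes near 0 by construction. mt-Nd1, a membrane subunit of complex I, was at 3877 and 3785 FPKM in DMSO and 10406 and 10593 FPKM in A-485 (log2 fold change 1.23 ± 0.07, adjusted p = 4.3e-08, edgeR). Coding mitochondrial genes took 2.35% to 2.71% of the counts in late 2-cell DMSO libraries, 5.35% to 5.43% after A-485 and 3.66% to 3.72% after TSA. The part of this larger mitochondrial share in the lower share of the members was not tested.

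Genes that act with the members were followed from fixed lists. The lists were not tested as sets, and their counts and medians are descriptions. Of all genes tested, 23.6% rose and 13.2% fell by 2-fold or more from early to late 2-cell embryos. In late 2-cell embryos 23.8% were lower and 15.0% higher after A-485, and after TSA 20.2% each. From zygote to early 2-cell embryos 22.5% fell and 16.9% rose, and with A-485 12.7% were lower in early 2-cell embryos. Of 41 assembly factors and partners outside the rule, 37 had 1 FPKM or more in the step from early to late 2-cell embryos, and 13 rose and 3 fell. After A-485 7 of 38 were lower and 4 higher, and after TSA 8 of 39 were lower and 5 higher. These shares after the inhibitors were near or under those of all genes. Sco2, which delivers copper to complex IV, was at 13.2 and 12.5 FPKM in late 2-cell DMSO embryos, 1.54 and 0.63 FPKM after A-485 and, against 11.9 and 10.3 FPKM in its own DMSO libraries, 1.76 and 2.80 FPKM after TSA. Of 78 mitochondrial ribosomal protein genes, 75 had 1 FPKM or more in each late 2-cell comparison with an inhibitor. Of these 75, 27 were lower and 3 higher after A-485 and 28 lower and 2 higher after TSA. The medians were -0.63 and -0.56, near those of the members. From zygote to early 2-cell embryos 40 of 75 fell and 2 rose, and to the late stage 24 of 75 rose and 9 fell. Cytoplasmic ribosomal protein genes went further, with 80 of 87 lower after A-485 and 78 of 87 after TSA and medians of -2.73 and -2.04. Already in early 2-cell embryos 49 of 84 cytoplasmic ribosomal protein genes were lower with A-485, a stage at which 5 members and 2 mitochondrial ribosomal protein genes were, and 74 of 86 rose from early to late 2-cell embryos in DMSO.

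Several of 12 regulators of respiratory genes changed with the stage and the inhibitors. Gabpa, an ETS-family activator of respiratory genes, was at 0.76 and 0.34 FPKM in DMSO zygotes, 31.4 and 25.9 FPKM in early and 190.3 and 219.9 FPKM in late 2-cell DMSO embryos, and at 24.2 and 22.3 FPKM in late 2-cell A-485 embryos (log2 fold change -3.13 ± 0.12, adjusted p = 7.4e-09, edgeR). After TSA it was at 44.1 and 47.3 against 204 and 225 FPKM. Pprc1, a coactivator, was at 60.0 and 65.7 FPKM in late 2-cell DMSO embryos and 9.24 and 4.76 FPKM after A-485, and after TSA at 3.64 and 4.31 against 74.1 and 62.0 FPKM. Polrmt, the mitochondrial RNA polymerase, was at 23.4 and 28.5 against 0.83 and 0.63 FPKM with A-485 and at 26.7 and 23.4 against 2.35 and 2.35 FPKM with TSA. In all 3 genes no inhibitor library came near a DMSO library. Of the 12 regulators, 11 had 1 FPKM or more in each late 2-cell comparison with an inhibitor. Of these 11, 6 were lower after A-485 and 7 after TSA, against 23.8% and 20.2% of all genes at that level. From early to late 2-cell embryos in DMSO 5 of 11 had risen, against 23.6%. With A-485 4 of 10 (Gabpa, Polrmt, Pprc1 and Yy1) were already lower in early 2-cell embryos, against 12.7%. Tfam, which packs mitochondrial DNA and acts in its transcription, was the 1 regulator higher after A-485, at 4.16 and 0.84 against 12.7 and 24.6 FPKM. It had been at 23.8 and 23.0 FPKM in DMSO zygotes.

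Open chromatin at the members' promoters was read from 4 ATAC-seq peak lists, each called by the authors over the replicates of 1 group. A peak lay within 1 kb of an annotated start of 51 of 94 members in DMSO late 1-cell embryos (54.3%, 95% Wilson interval 44.2 to 64.0), against 38.0% of 14145 expressed protein-coding genes, and of 46 in A-485 late 1-cell embryos (48.9%, against 36.3%). In early 2-cell embryos it was 50 members in DMSO (53.2%, 43.2 to 63.0, against 46.6%) and 64 in A-485 (68.1%, 58.1 to 76.6, against 59.0%). Between the early 2-cell lists 45 members had a peak in both, 5 in DMSO only and 19 in A-485 only, and over all expressed genes the numbers were 5493, 1104 and 2853. The lists hold no replicates and were not tested against each other. The intervals treat the members, which were chosen by rule, as independent draws. They are descriptions, and the members' shares were not tested against those of the expressed genes. With the 7094 strongest peaks of each list the early 2-cell shares were 18.1% in DMSO and 48.9% in A-485, against 13.4% and 36.2% of the expressed genes.

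The peaks were also counted by the RNA call after A-485. Of the 28 members that were lower in late 2-cell embryos after A-485, 21 (75.0%) had a peak in the early 2-cell DMSO list and 23 (82.1%) in the early 2-cell A-485 list, and of the 66 others 43.9% and 62.1%. Over all expressed protein-coding genes the shares were 72.3% and 69.8% of those called lower and 38.6% and 55.6% of the rest, and the members were not tested against them. Ndufs8 had peaks in all 4 lists, with a fold enrichment of 10.4 in DMSO and 10.3 in A-485 early 2-cell embryos over chr19:3912350-3913168 and chr19:3912394-3913097, which cover the printed window. Uqcrc1 had peaks in all 4 lists as well, with 9.85 and 9.21 in early 2-cell embryos. Uqcrfs1 had 12.9 in DMSO and 6.82 in A-485 early 2-cell embryos and none in A-485 late 1-cell embryos. Of the 3 members that were higher after A-485, Ndufb4 had a peak in the A-485 lists only, at 6.39 in early 2-cell embryos, whereas Ndufa10 had 11.5 and 10.4 and Ndufv3 6.60 and 12.9 in DMSO and A-485 early 2-cell embryos. Ndufa9 had none over the printed window.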

How the data were processed

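RNA-seq gene tables of 16 libraries in 8 groups of 2 were used, together with 4 ATAC-seq peak lists. Per the labels and the study's methods, the authors trimmed reads with Trimmomatic 0.39, aligned them with STAR 2.7.8a to GRCm38 and quantified genes with RSEM 1.3.1. The deposited expected counts are estimated, partly fractional read numbers per gene, and the deposited FPKM values divide them by effective length and depth. The effective lengths and posterior SDs of the counts that the authors deposited beside them were also read. For the ATAC-seq lists the authors ran the ENCODE pipeline on mm10 and kept reproducible peaks over both replicates of a group. The fold enrichment over background, the score and the −log10 p-values in these lists are the deposited output of the peak caller, and only position and fold enrichment are given here.

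Expected counts were rounded and tested in edgeR 4.0.16 (R 4.3.3) with its quasi-likelihood test and TMM scaling, on all genes with 10 or more counts summed over the fit, each fit holding only the groups compared. P-values were adjusted over all genes by Benjamini-Hochberg. Calls needed a mean of 1 FPKM in either group, a change of at least 2-fold and an adjusted p under 0.05, and the interaction tests used the adjusted p alone. The fit was tested on simulated data with known changes. Depth was 13206163 to 32585987 counts per library, and intervals cover counting error only. DESeq2 1.42.0, other scalings, limma 3.58.1 on log2(FPKM + 0.1), each library left out and the other alternatives are described at the end. The limma alternative was chosen after seeing the data.

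Members and gene lists were chosen with earlier results of these data known. Named members were, by rule, the called gene with the largest non-overlapping change per complex, direction and comparison, textbook core subunits, paralog pairs, and the highest and lowest of each complex in DMSO zygotes. Members outside that rule (among them Ndufa1, Ndufa9, Ndufa10, Ndufaf5, Uqcrb, Uqcrq, Uqcrh, Cox5b, Sdhc and Sdhd where not the largest) were named after their values were seen. The labels give more than 1 TSA period, and that stated in the study for late 2-cell embryos was used. Other assays of the series were not used here, and some items are not reported here. Replicate numbers were not taken as pairs.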

Additional observations from a re-analysis of the deposited data

Results flagged for a closer look

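The members below are given because the test of the difference between a pair of effects passed at an adjusted p under 0.05 in edgeR. Each value is a difference of log2 fold changes, and no explanation was tested. For the A-485 effect in late minus early 2-cell embryos, the difference was positive for Ndufb4 (5.31), Ndufv3 (2.83), Ndufa10 (1.71) and Ndufaf4 (0.56). It was negative for Uqcrfs1 (-2.87), Cox4i1 (-2.86), Ndufa2 (-2.38), Atp5a1 (-1.86), Cox5a (-1.64), Ndufb2 (-1.57), Atp5b (-1.52), Cox5b (-1.20) and Atp5f1 (-1.17). Ndufv3 was called lower at the early stage and higher at the late stage.

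For the TSA effect minus the A-485 effect in late 2-cell embryos, the difference was positive for Ndufs8 (3.52), Ndufa2 (2.42), Ndufa9 (2.14), Ndufv1 (1.90), Uqcrc1 (1.64), Cox4i1 (1.63), Uqcrfs1 (1.47), Ndufaf2 (1.32), Atp5h (1.15) and Atp5a1 (0.95). It was negative for Sdhd (-2.17), Ndufa10 (-1.54) and Cox8a (-0.82). The calls of Ndufv1, Sdhd, Uqcrc1 and Cox8a were each lost without several single libraries, that of Uqcrfs1 without DMSO replicate 1 of the TSA experiment, and that of Cox4i1 without DMSO replicate 2 or TSA replicate 1 of that experiment. No library of a group could be set apart as an outlier, since groups of 2 allow no such test.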

How the results depend on the processing

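Of the values of named genes under other settings with all libraries, 479 kept direction and side of the threshold, 39 lost the call and 3 reversed, and with a library left out 329 kept and 47 lost it. The causes were not tested unless the setting itself gives them. Scaling to the mitochondrially encoded genes, which shifts all genes, gave medians of 0.34 (zygote A-485), -0.25 (early A-485), -1.73 (late A-485), -0.99 (TSA) and -2.06 (zygote to early 2-cell). In late A-485 1 member was higher and 47 lower, against 1177 and 6874 of 16062 genes. From zygote to early 2-cell 0 were higher and 68 lower, against 1270 and 8196 of 13353 genes. Cox7a2 was then at -0.10, Cox8a at -0.071 and Atp5g1 at -0.10. Interactions were 2 and 28 (A-485, late minus early), against 4.45% and 25.0% of all genes. For TSA minus A-485 they were 22 and 0, against 25.0% and 1.55%. Total-count scaling gave 5 higher members (2939 of 16062 genes) and a median of -0.57 in late A-485, and -0.84 from zygote to early 2-cell. For TSA it gave 4 higher, 22 lower and -0.45, against 4108 higher and 2384 lower of 16048 genes. Limma on FPKM gave 3 lower members in early A-485 (3.61%, against 6.92% of all genes) and a median of -0.81 from zygote to early 2-cell. In late A-485 it gave 17 lower (20.0%, against 17.3%) and a median of -0.52. For TSA it gave 4 higher (4.60%, against 22.6%), 18 lower (20.7%, against 13.3%) and -0.43. A fit over all 16 libraries gave -0.15 in early A-485, 7 higher in late A-485, and 1 higher and -0.67 for TSA. DESeq2 gave -0.68 from zygote to early 2-cell and 6 lower members for TSA minus A-485. Without the fold limit 1 member was higher in early A-485, 5 in late A-485, 9 from zygote to early 2-cell, and 9 lower from early to late 2-cell. Without the low-count filter 3 were lower in that step, and with the DMSO libraries of the TSA experiment 34 were higher and the median was 0.77. With the replicate number as a block, early A-485 gave 1 higher member and a median of -0.17, TSA a median of -0.87, and TSA minus A-485 6 lower members, and no other count or median moved. The numbers were not taken as pairs, since they are shared by 2 libraries a group, and deviations of same-numbered libraries correlated at 0.388 for TSA and between -0.026 and 0.019 in the other comparisons. With the strongest 7094 peaks per list, the share of members with a promoter peak was 39.4% in late 1-cell DMSO, 18.1% in early 2-cell DMSO and 48.9% in early 2-cell A-485, against 28.6%, 13.4% and 36.2% of expressed genes. Leaving out 1 library at a time gave medians of -0.19 to -0.12 and 3 to 5 lower members in early A-485 (3 without DMSO replicate 2), -0.80 to -0.60 in late A-485, -0.88 to -0.81 and 1 to 2 higher members for TSA (1 without DMSO replicate 1 or TSA replicate 1), -0.81 to -0.78 from zygote to early 2-cell, and 4 to 12 higher and 0 to 5 lower members for TSA minus A-485. The late A-485 libraries were the shallowest, so members under about 1 FPKM had few reads there.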
